A study of Caenorhabditis elegans with 4 samples.

Results

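The levels of 10 genes of the eggshell and of egg activation were examined in early embryos of the nematode C. elegans. The genes were chosen by name and not by any measured value, though with earlier results of these data known. They were chs-1, cbd-1, cpg-1 and cpg-2 for the eggshell, egg-1 and egg-2 for the oocyte surface, and egg-3, egg-4, egg-5 and mbk-2 for egg activation. All 10 of 10 were represented on the array, out of 20040 genes measured. The samples form 1 group of 4 replicates of the wild-type strain N2, with no mutant, treated or adult sample beside them. Each is total RNA from embryos released with bleach from gravid adults grown in liquid culture, and each came from a preparation that also supplied chromatin for ChIP. By the study's methods the preparations mixed early cleavage stages with somewhat older embryos, so a value is an average over stages. In such bulk RNA, fewer embryos with a transcript and less transcript per embryo cannot be told apart.

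The C. elegans eggshell is assembled by the zygote itself within minutes of sperm entry. The outer vitelline layer is already on the oocyte, and cortical granules then release the material of the chitin layer and of the proteoglycan layer beneath it. In parallel the oocyte leaves meiosis: a complex of inactive phosphatases that held the kinase MBK-2 at the cortex is taken apart, and MBK-2 marks oocyte proteins for destruction. The RNAs for these proteins are made in the maternal germ line and carried into the embryo with the oocyte.

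Levels are given as log2 of the deposited RMA intensity, the single value per transcript that results from quantile normalization of the arrays and robust averaging of 3 probes. RMA stands for Robust Multichip Average. As a yardstick for little or no transcript, the level exceeded by the top 2.5% of 1343 serpentine receptor genes was taken in each sample, since these genes encode chemoreceptors of mature neurons. It lay between log2 values of 8.47 and 8.70. Genes were also ranked on their mean into 5 equal bins of 4008 genes, the highest of which began at a log2 value of 12.83. Different probes bind their targets with different strength, so an order of genes is an order of intensities and not of RNA amounts. With 1 group there is no contrast to test, and errors are the spread over 4 samples.

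Between pairs of arrays, Pearson's r across genes was 0.968 to 0.973 for the pairs with replicate 4 and 0.985 to 0.992 for the others. The label of the samples was compared with marker lists, of which those for sperm, muscle, gonad sheath and cuticle are given further below. All 7 of 7 maternal early embryo genes were above the serpentine receptor level, against 42% of all genes. They ran from skn-1 at 12.89 ± 0.29 and mex-1 at 13.38 ± 0.19 to mex-3 at 14.78 ± 0.10 and glp-1 at 15.14 ± 0.11. Maternal RNA does not by itself tell embryos from the maternal germ line. Above that level were also 6 of 8 early zygotic genes, all but end-3 at 8.45 ± 0.37 and med-1 at 7.97 ± 0.14. None of the 6 yolk protein genes vit-1 to vit-6, which mark the adult gut, passed that level in every sample. Their means ran from 5.52 for vit-1 to 8.10 for vit-4, and their summed intensity was 653 to 1351 over the samples. Vit-4 exceeded the serpentine receptor level in replicate 4, at 9.30, against 7.21 to 7.96 in the other samples. Of the 6 yolk genes, 3 were highest in replicate 4 and 2 were lowest there.

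All 10 genes were above the serpentine receptor level in each of the 4 samples, as were 42% of all genes on the array. All 10 also fell in the highest of the 5 bins, which by construction holds 20% of genes, and 7 fell in the highest of 10 bins. Their median log2 level was 14.15, against 7.82 for all genes, or an intensity of 18227 against 226. The closest approach of any of the 10 to the serpentine receptor level was that of chs-1 in replicate 4, and it was still 3.83 above on the log2 scale, or 14.2-fold. The median SD of the 10 was 0.21, against 0.35 for all genes and 0.17 for genes of the highest bin.

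**Figure D1:**
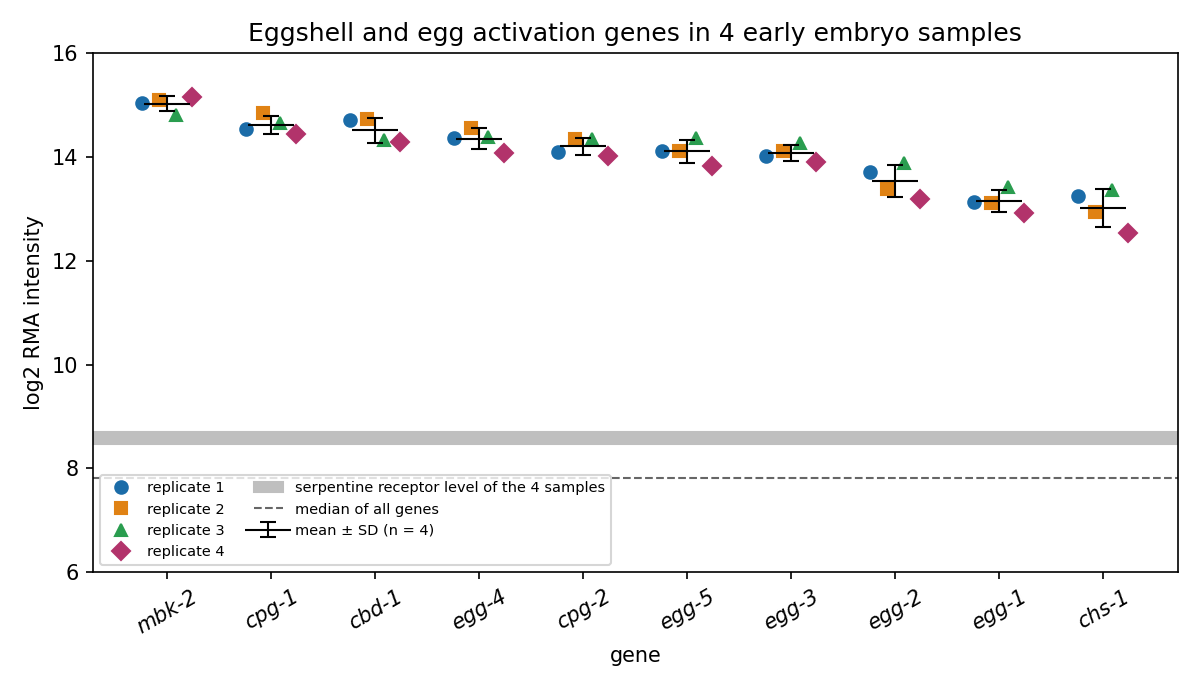
Log2 RMA intensity (vertical axis) of the 10 genes, ordered by mean, in each of 4 wild-type early embryo samples. Symbols are single samples and black bars are means ± SD (n = 4). All symbols lie above the grey band of the serpentine receptor level (8.47 to 8.70) and above the dashed median of all genes (7.82).

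Genes for the structure of the shell spanned nearly the whole range of the set, with the vitelline layer gene and the proteoglycan genes high and the chitin synthase lowest. The gene cbd-1 (H02I12.1, chromosome IV) encodes a chitin-binding protein of the vitelline layer. It had log2 values of 14.70, 14.73, 14.32 and 14.28 in replicates 1 to 4, a mean of 14.51 ± 0.24 (SD, n = 4), and 3.41% of genes were higher. Replicates 1 and 2 were high and replicates 3 and 4 were low.

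The genes cpg-1 (C07G2.1) and cpg-2 (B0280.5), both on chromosome III, encode chondroitin proteoglycans that bind chitin and form the layer inside the chitin. For cpg-1 the log2 values were 14.54, 14.84, 14.65 and 14.45 in replicates 1 to 4, with a mean of 14.62 ± 0.17. For cpg-2 they were 14.10, 14.34, 14.35 and 14.02, with a mean of 14.20 ± 0.17. With the 2 transcripts of cpg-1 averaged, its values were above those of cpg-2 in each of the 4 samples. The groups of values did not overlap. The difference was 0.42 ± 0.09 (log2, SD over 4 samples), or 1.34-fold in intensity.

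The gene chs-1 (T25G3.2, chromosome I) encodes the chitin synthase of the eggshell, a membrane enzyme that polymerizes N-acetylglucosamine into chitin. Its log2 values were 13.25, 12.94, 13.35 and 12.53 in replicates 1 to 4, with a mean of 13.02 ± 0.37. It had the lowest mean of the 10 genes, in rank 3611 of all genes, and the largest spread of them. Its highest sample was 1.77-fold above its lowest, and its SD was larger than that of 95.4% of genes in the highest bin. In replicate 4 alone, chs-1 stood at the 77.4th percentile of genes, below the highest of the 5 bins of that sample, and its highest percentile was 84.8.

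The oocyte surface genes egg-1 (B0244.8) and egg-2 (R01H2.3), both on chromosome III, encode related membrane proteins with LDL-receptor repeats that are needed for sperm to enter. For egg-1 the log2 values were 13.13, 13.10, 13.43 and 12.92 in replicates 1 to 4, with a mean of 13.15 ± 0.21. For egg-2 they were 13.71, 13.37, 13.87 and 13.19, with a mean of 13.54 ± 0.31. Replicate 3 was the highest and replicate 4 the lowest sample for both genes. In every sample egg-1 was below egg-2, with differences of -0.58, -0.27, -0.45 and -0.27 in replicates 1 to 4 and a mean of -0.39 ± 0.15. Across samples the ranges overlapped, since egg-1 in replicate 3 exceeded egg-2 in replicates 2 and 4. Both were well above the serpentine receptor level, egg-1 by at least 4.22 and egg-2 by at least 4.49 (log2) in every sample. Together with chs-1 they were the lowest of the set, with 12.9% of genes higher than egg-2 and 16.9% higher than egg-1.

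The genes egg-3, egg-4 and egg-5 encode phosphatase-like proteins without catalytic activity, which hold MBK-2 at the oocyte cortex and keep it inactive until meiosis proceeds. Egg-3 (F44F4.2, chromosome II) encodes the scaffold of this complex, and had log2 values of 14.02, 14.11, 14.27 and 13.90 in replicates 1 to 4, with a mean of 14.07 ± 0.16. Egg-4 (T21E3.1) and egg-5 (R12E2.10), both on chromosome I, encode a pair of closely similar proteins that bind MBK-2 and block it. The values of egg-4 were 14.37, 14.55, 14.39 and 14.07, with a mean of 14.34 ± 0.20. Those of egg-5 were 14.11, 14.12, 14.37 and 13.83, with a mean of 14.11 ± 0.22. All 3 genes were lowest in replicate 4, while egg-4 was highest in replicate 2 and egg-3 and egg-5 in replicate 3. Egg-4 exceeded egg-5 by 0.24 ± 0.17 (log2), with 0.26, 0.43, 0.02 and 0.23 in the 4 samples. The sign was the same in each of the 4, but the ranges of the 2 genes overlapped and the difference all but vanished in replicate 3. Because egg-4 and egg-5 are near copies, as are egg-1 and egg-2, a probe of one may also bind RNA of the other. Probe sequences were not analysed here and this was not tested.

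The gene mbk-2 (F49E11.1, chromosome IV) encodes a DYRK family kinase that phosphorylates OMA-1, MEX-5 and MEI-1 in the newly fertilized embryo. It was the highest of the 10, with log2 values of 15.03, 15.09, 14.81 and 15.14 in replicates 1 to 4, a mean of 15.02 ± 0.15, and 0.888% of all genes higher. Its highest sample was replicate 4 and its lowest replicate 3, the reverse of the order in egg-1, egg-2, egg-3, egg-5, cpg-2 and chs-1. In intensity the kinase gene was above the genes for its inhibitors by more than their spread: no sample of egg-3, egg-4 or egg-5 reached the lowest value of mbk-2.

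In the order of mean intensity, mbk-2 was followed by cpg-1, cbd-1, egg-4, cpg-2, egg-5, egg-3, egg-2, egg-1 and chs-1. Of the 9 steps between neighbours in this order, 3 were larger than the larger SD of both neighbours and had the same sign in each of the 4 samples. These were mbk-2 over cpg-1 by 0.40 ± 0.24, egg-3 over egg-2 by 0.54 ± 0.22, and egg-2 over egg-1 by 0.39 ± 0.15. The other steps, 0.03 to 0.17, were no larger than the larger SD of both genes. By this measure the 6 genes from cpg-1 to egg-3 hold no settled order among neighbours, and neither do egg-1 and chs-1, which differed by 0.13 ± 0.21. Within arrays, however, egg-4 was above cpg-2 in each of the 4 samples, by 0.14 ± 0.12.

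**Figure D2:**
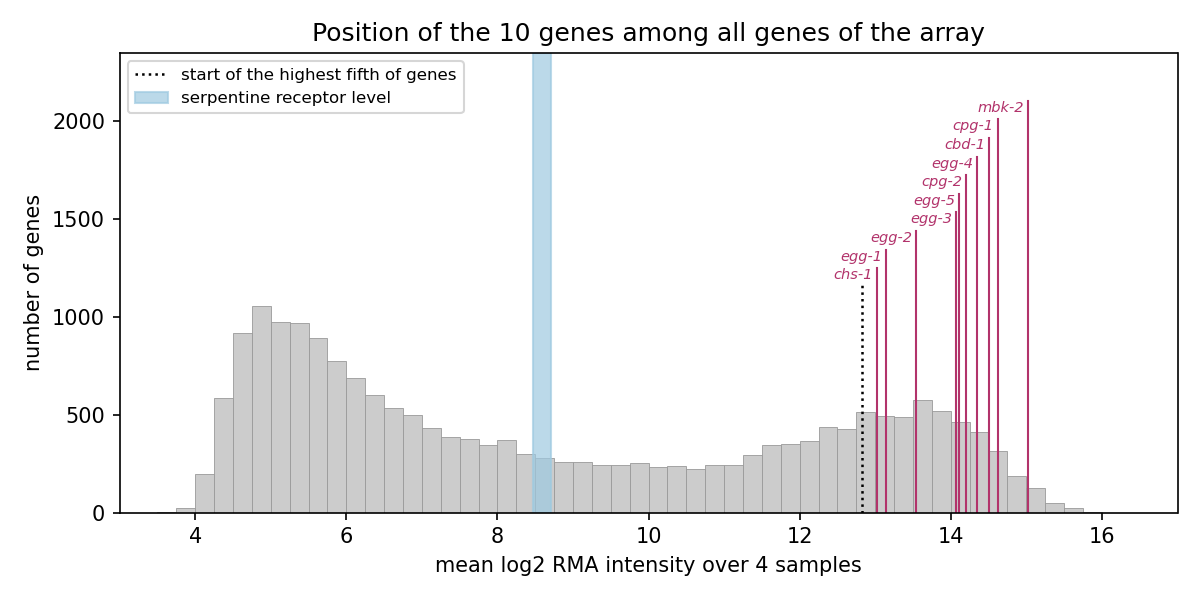
Number of genes (vertical axis) by mean log2 RMA intensity over 4 samples (horizontal axis), for all 20040 genes of the array in grey. Vertical lines mark the 10 named genes, whose heights only separate the names. All 10 lie right of the dotted start of the highest of 5 bins (12.83), from chs-1 at 13.02 to mbk-2 at 15.02.

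Of the 10 genes, 8 were measured as 1 transcript each, cpg-1 as 2 and mbk-2 as 5. The 2 transcripts of cpg-1 differed: transcript C07G2.1a averaged 15.07 ± 0.09 and C07G2.1b 14.17 ± 0.39. Transcript a was above b by 1.26, 0.25, 0.95 and 1.12 (log2) in replicates 1 to 4, or 2.40-, 1.19-, 1.93- and 2.17-fold in intensity. It was higher in each of the 4 samples, and the difference was smallest in replicate 2, where b was at its highest and a at its lowest. In replicate 4, where cpg-1 as a whole was lowest, transcript a was at 15.01 and transcript b at its lowest, 13.89. With transcript a alone, cpg-1 would exceed cpg-2 by 0.86, in place of 0.42. Transcript b alone, at 14.17, was level with cpg-2, at 14.20, and was above it only in replicate 2, at 14.72 against 14.34.

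The 5 transcripts of mbk-2 gave nearly the same reading. Their means ran from 14.98 for F49E11.1e to 15.11 for F49E11.1b, a range of 0.13. The median of the same range was 0.21 over the 772 genes of the highest bin with several transcripts, and 90% of these genes had a range under 1.58. All 5 transcripts were lowest in replicate 3. Replicate 4 was highest for 4 of them, and replicate 2 for F49E11.1b at 15.34. RefSeq now lists 14 transcripts of mbk-2, so the 5 readings do not resolve its isoforms.

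**Figure D3:**
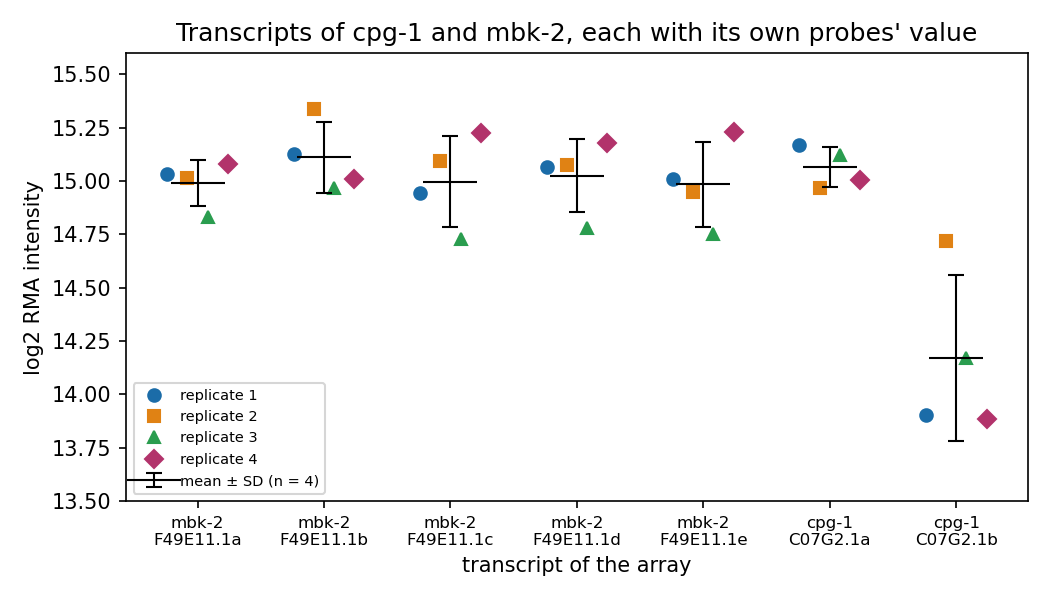
Log2 RMA intensity (vertical axis, not starting at 0) of the 5 mbk-2 transcripts and the 2 cpg-1 transcripts on the array, in each of 4 samples, with means ± SD (n = 4). The mbk-2 transcripts lie within 0.13 of each other by their means, while the cpg-1 transcripts lie 0.89 apart.

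The median of the 10 genes was low in replicate 4 and high in replicate 3. The deviation of a gene is its log2 value in a sample minus its mean over the 4 samples. In replicate 4 the median deviation of the 10 genes was -0.23, against -0.01 for genes of the highest bin and -0.02 for all genes. In replicate 3 it was 0.17, against 0.04 and 0.03. In replicates 1 and 2 it was 0.0071 and 0.055, against 0.0043 and -0.0062 for genes of the highest bin.

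Counted by gene, 9 of the 10 were lowest in replicate 4, all but mbk-2. The same was so for 25% of genes of the highest bin and for 31.6% of all genes. Replicate 3 was the highest sample for 6 of the 10, which were chs-1, egg-1, egg-2, egg-3, egg-5 and cpg-2. That share was 41.9% among genes of the highest bin and 33.6% among all genes. The count in replicate 4 depended on the scaling of the arrays. Replicate 4 had the lowest median over all genes, 7.82 against 7.91 to 7.92, and when each array was set to its own median 6 of the 10 genes were lowest there, against 12.7% of genes of the highest bin. The genes that left the count were cbd-1, cpg-1 and cpg-2. The median deviation of the 10 in replicate 4 was then -0.15.

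The size of the deviation differed among the genes. It was largest for chs-1, at -0.49 in replicate 4 and 0.33 in replicate 3, and next for egg-2, at -0.34 and 0.34. Egg-1 was at -0.22 and 0.28 and egg-5 at -0.27 and 0.26. By contrast cpg-1 was at -0.17 and 0.03, and mbk-2 ran the other way, at 0.12 in replicate 4 and -0.21 in replicate 3. Cbd-1 was low in both, at -0.23 and -0.19.

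**Figure D4:**
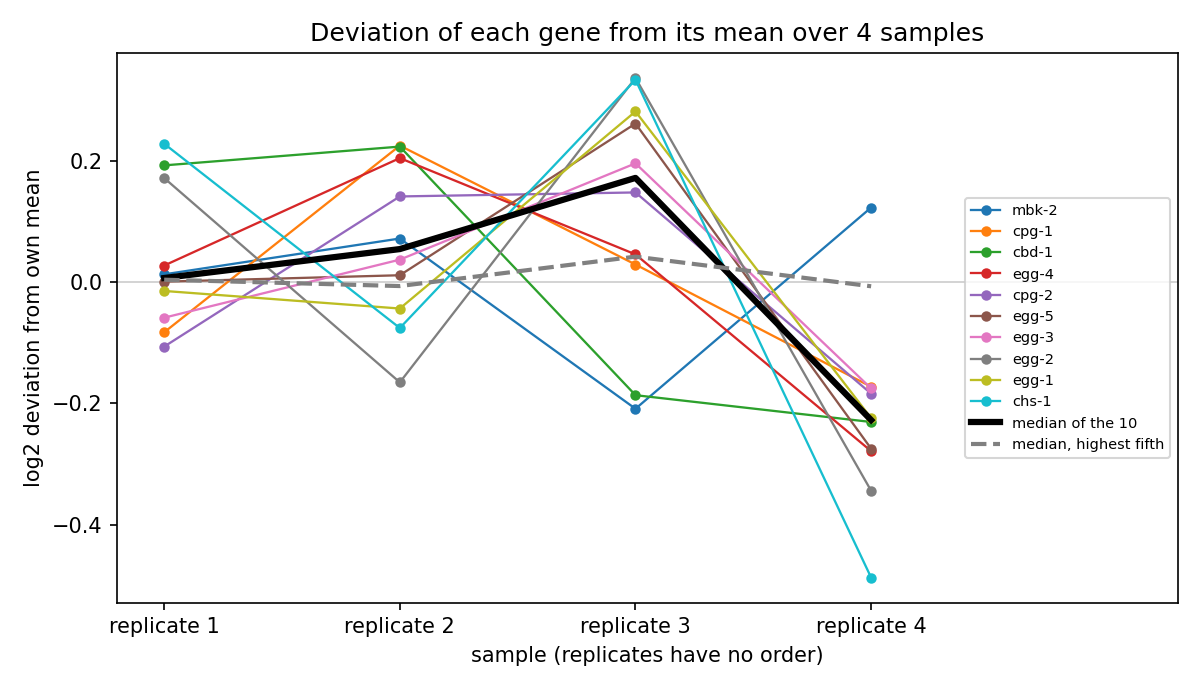
Log2 deviation of each of the 10 genes from its own mean (vertical axis) in each of the 4 samples (horizontal axis, whose order has no meaning). Coloured lines are genes, the black line is their median and the dashed line is the median of all genes of the highest bin. In replicate 4 all genes but mbk-2 lie below 0, with a median of -0.23, while the dashed line stays at -0.01.

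Other measurements moved between the same samples. Among 18 sperm genes, 4 were above the serpentine receptor level, which were gsp-3, gsp-4, fer-1 and spe-6. The sperm phosphatase genes gsp-3 and gsp-4 were higher in replicate 3, at 10.90 and 11.02, than in the other samples, at 9.54 to 9.74 and 9.63 to 9.89. The summed intensity of the sperm list was 4338 to 8313 over the samples, and spe-49, at 5.09 ± 0.40, was far below that level. Of 4 muscle genes only the myosin gene unc-54 passed that level. It was at 8.87 in replicate 3 and at 10.87, 10.37 and 10.11 in replicates 1, 2 and 4, and myo-3, myo-2 and myo-1 averaged 7.31 ± 1.25, 6.19 ± 0.37 and 4.87 ± 0.20. The summed intensity of the muscle list was 628 to 2359. Of 4 gonad sheath and spermatheca genes 1 passed, lim-7 at 11.86 ± 0.16, while sth-1, fkh-6 and ceh-18 averaged 5.85 to 6.92. Of 4 cuticle genes 1 passed, dpy-7 at 11.69 ± 0.63, while col-19, rol-6 and bli-1 averaged 5.03 to 6.60. In replicate 3 dpy-7 was lowest and rol-6 highest. The summed intensities of these lists were 3472 to 4549 and 1969 to 5019. The median deviation of the maternal early embryo genes was 0.09 in replicate 3 and 0.05 in replicate 4. The part of these signals, and of the lower correlation of replicate 4 with the other arrays, in the deviations of the 10 genes was not tested.

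Beyond the 10, a further 56 genes of the same processes were listed by name, 54 of which were matched on the array. Above the serpentine receptor level were 50 of the 54, against 42% of all genes, and 36 were in the highest bin, against 20%. The median log2 level of the 54 was 13.52. In replicate 4 their median deviation was -0.09, and 23 of the 54 were lowest there. The share lowest there was 31.6% among all genes and 25% among genes of the highest bin. For the 10 genes the median deviation was -0.23 and the count 9 of 10.

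Chitin is built from UDP-N-acetylglucosamine. Of 5 genes for chitin and its precursors 4 were above the serpentine receptor level. Gna-2, an N-acetyltransferase of this route, was at 13.80 ± 0.29 and its relative gna-1 at 12.53 ± 0.09. Gfat-1 and gfat-2, for the aminotransferase that opens the route, were at 13.28 ± 0.12 and 11.76 ± 0.37. The other chitin synthase, chs-2, known from the pharynx, had log2 values of 9.20, 9.24, 9.07 and 8.50 in replicates 1 to 4 (SD 0.34) and did not pass that level in every sample. The deviations of chs-1 were 0.23, -0.08, 0.33 and -0.49 in replicates 1 to 4, and those of gfat-2 were 0.24, -0.08, 0.33 and -0.49. Those of gna-2 were -0.40, 0.07, 0.27 and 0.06, and those of gfat-1 were 0.17, -0.03, -0.07 and -0.08. For gna-1 they were 0.08, 0.04, -0.13 and 0.0004, and for chs-2 0.20, 0.24, 0.07 and -0.50. The likeness of chs-1 and gfat-2 was picked out after the values were seen, and with 4 samples it is only a description.

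Of 9 genes of chondroitin synthesis, which makes the sugar chains carried by CPG-1 and CPG-2, 8 were above the serpentine receptor level. The chondroitin synthase gene sqv-5 and its partner mig-22 were the highest, at 14.11 ± 0.11 and 14.02 ± 0.15, close to cpg-2. The lowest were sqv-2, which adds a linker galactose, at 9.92 ± 0.37, and the xylosyltransferase gene sqv-6, at 8.96 ± 0.49, which did not pass.

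Of 12 genes of other eggshell proteins and of the lipid permeability barrier, 10 were above the serpentine receptor level. Pod-1, a coronin-like protein, was highest at 14.55 ± 0.25, followed by the fatty acid synthase gene fasn-1 at 13.63 ± 0.57. Perm-2 and perm-4 encode proteins that join CBD-1 in the vitelline layer. They were the 2 that did not pass that level, at 7.07 ± 0.72 and 6.94 ± 0.40. Of the 12 genes, 8 were lowest in replicate 4, against 31.6% of all genes, and 7 were highest in replicate 3, against 33.6%. Both held for perm-2, with deviations of -0.87 and 0.64, and for perm-4, at -0.54 and 0.37. Cpg-3, a further chondroitin proteoglycan that was singled out after its values were seen, averaged 13.12 ± 0.49 with deviations of -0.65 in replicate 4 and 0.52 in replicate 3. Fasn-1 ran the other way, at 0.34 and -0.83.

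All 5 measured genes of cortical granule secretion were above the serpentine receptor level, and 4 of them were in the highest bin. The caveolin gene cav-1, whose product sits on the granules, was at 15.68 ± 0.13, with the small GTPase genes rab-11.1 at 15.10 ± 0.04 and rab-6.1 at 14.52 ± 0.16. Rab-6.2 was at 12.69 ± 0.14 and the separase gene sep-1 at 13.22 ± 0.22.

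All 15 genes listed for the activation and substrates of MBK-2 and for the removal of MEI-1 were above the serpentine receptor level, and 14 were in the highest bin. The RNA-binding protein gene mex-6 was at 15.23 ± 0.13 and the cyclin gene cyb-3 at 15.07 ± 0.19, close to mbk-2. The lowest were mei-1, for the katanin that serves the meiotic spindle, at 13.33 ± 0.20, and the NEDD8-conjugating enzyme gene ubc-12, at 12.38 ± 0.23. Like mbk-2, cyb-3 was highest in replicate 4 (deviation 0.21) and lowest in replicate 3 (-0.25), as were cks-1 and cul-3. By contrast mei-1 and mei-2 were highest in replicate 3, at 0.26 and 0.41. Of these 15 genes 4 were highest in replicate 4 and 5 in replicate 3. Among the 4008 genes of the highest bin these counts were 838 and 1678. The median deviation of the 15 genes was -0.04 in replicate 4. The 8 measured genes of the anaphase promoting complex, on which the loss of EGG-3 depends, were all above the serpentine receptor level as well. They ran from emb-1 at 12.58 ± 0.32 and mat-1 at 12.97 ± 0.27 to mat-3 at 13.94 ± 0.28 and the activator gene fzy-1 at 14.12 ± 0.15.

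The 10 genes lie on chromosomes I, II, III and IV, with 3, 1, 4 and 2 of them. None lies on X, which holds 13.6% of the genes with a known place. Whether they lie closer together than other genes was not tested. The closest pairs were cpg-2 and egg-2, with 17 protein-coding genes between them, and the near copies egg-4 and egg-5, with 40, while egg-1 and egg-2 had 270 between them. Gene order was taken from the RefSeq annotation of assembly WBcel235.

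Of the 20 nearest measured protein-coding genes, 1 on each side, 8 passed the serpentine receptor level, against 42% of all genes, and 7 were in the highest bin, against 20% of all genes. The median of the 20 was 8.28. All 10 genes were themselves in the highest bin, and the share of other genes of that bin above both neighbours was not computed. Of the 10 genes, 7 were above both of their neighbours. The exceptions were egg-5, level with R12E2.11 at 14.13, egg-1, below the beta-catenin gene wrm-1 at 14.03, and chs-1, below T25G3.3 at 14.46 and level with T25G3.1 at 13.09. A further 3 genes on the array overlapped one of the 10 in the annotation. They were F49E11.2 with mbk-2 at 8.66 ± 0.24, lurp-1 with egg-3 at 6.87 ± 0.48 and B0244.9 with egg-1 at 6.84 ± 1.63. None of the 3 passed that level.

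**Figure D5:**
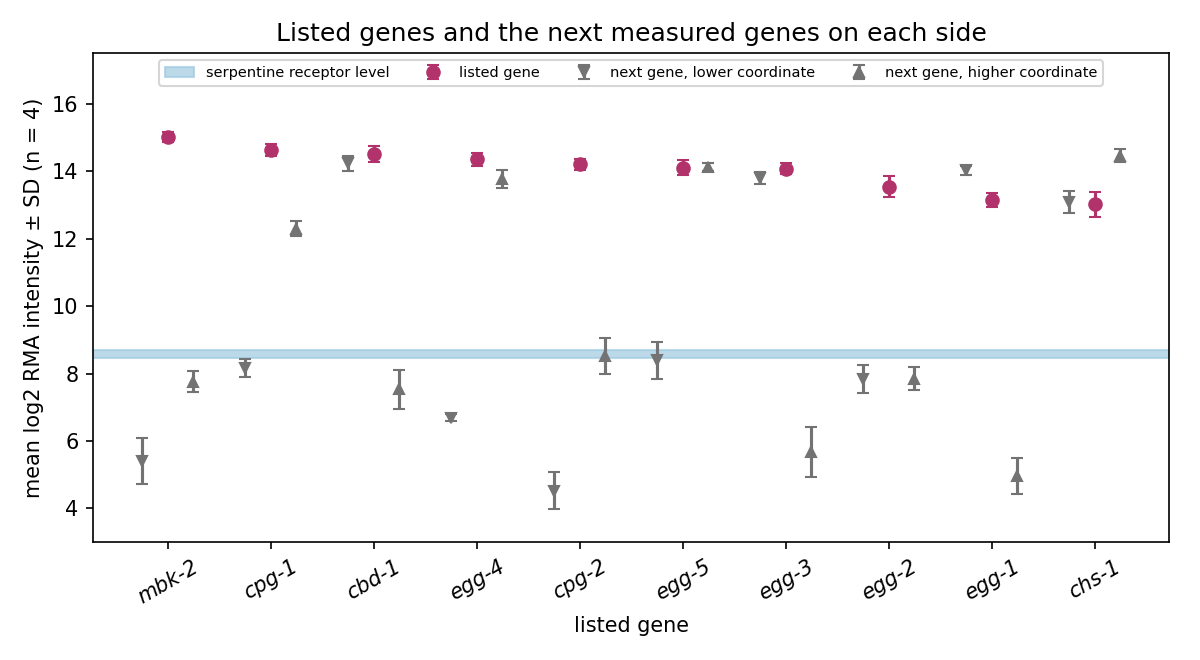
Mean log2 RMA intensity ± SD (n = 4, vertical axis) of each of the 10 genes and of the nearest measured gene on each side, shown as triangles, with the serpentine receptor level as a band. Of the 20 neighbours 8 are above that level, and only egg-5, egg-1 and chs-1 have a neighbour at or above their own mean.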

How the data were processed

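RNA of 4 early embryo samples was hybridized by the authors to single color NimbleGen expression arrays with 3 probes per transcript. Per the labels and methods, the arrays were quantile normalized and summarized by RMA, which gave linear intensities, deposited without a background or detection call. For the array's annotation, its genome build and the software version, the sources used here give nothing. The labels state DNase treatment for all samples and the methods for some, so samples were not divided by it. The series-wide value table was identical, with 0 of 92720 intensities different.

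Intensities were log2 transformed without a pseudocount and without further normalization or a filter on low values, and transcripts of one gene were averaged, which turned 23180 transcripts into 20040 genes. Sequence names were matched to RefSeq symbols (assembly WBcel235) for 19380 genes. Of the listed genes, 2 (syn-4 and mat-2) were not matched by symbol. Means and SDs are over the 4 samples, whose number limits the precision. With 1 group no test was run. The labels number the replicates, and each came from a separate preparation.

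The 10 genes and the gene lists were chosen with earlier results of these data known. Named were the 10 genes, all genes of lists of up to 6 measured genes, otherwise the 2 highest and 2 lowest by mean, and genes below the serpentine receptor level where a list had 5 or fewer of these. A few others were named after their values were seen, and 1 gene under this rule is not reported here. Levels were recomputed without each replicate, with the sample median, with linear means, with the highest transcript of a gene, after quantile normalizing again, with other serpentine receptor percentiles, with 4 or 10 bins, on genes above the median only, from the series table and, for deviations, with each array minus its median. Scripts were tested on simulated data. The software was Python 3.11.15 (pandas 2.3.3, numpy 2.4.6, matplotlib 3.10.9, scipy 1.17.1).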

Additional observations from a re-analysis of the deposited data

Results flagged for a closer look

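The 10 genes, the other listed genes, the 7 transcripts of cpg-1 and mbk-2 and the 3 differences between related genes were examined for a sample that stood far from the other 3, taking the gap to the nearest sample over the whole range of the 4 (Dixon's criterion at the 95% level). Of these 125 sets of values, 115 of them genes, 8 had such a sample, and chance flags about 1 in 20. None of the 8 was among the 10 eggshell and egg activation genes, the transcripts or the differences. In 7 of the 8 the sample apart was replicate 3, which was high. Replicate 3 was the highest sample for 33.6% of all genes, and how often it stood apart over all genes was not computed.

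The chondroitin synthesis gene sqv-3 had a log2 value of 13.05 in replicate 3 and of 12.44 to 12.52 in the other samples. The cytochrome P450 gene cyp-31A3, of the permeability barrier list, was at 12.66 in replicate 3 and at 12.05 to 12.11 in the others. The anaphase promoting complex gene emb-1 was at 13.05 in replicate 3 and at 12.35 to 12.47 in the others. The T-box gene tbx-38, an early zygotic gene, was at 13.78 in replicate 3 and at 13.52 to 13.55 in the others. The sperm genes gsp-3 and spe-11 were at 10.90 and 9.76 in replicate 3, with 9.54 to 9.74 for gsp-3 and 8.13 to 8.31 for spe-11 in the others. The collagen gene rol-6 was at 6.27 in replicate 3 and at 5.42 to 5.55 in the others, all of them below the serpentine receptor level. The exception was perm-5, of the permeability barrier list, which was low in replicate 4 at 11.17 and at 11.54 to 11.59 in the others.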

How the results depend on the processing

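Of 176 values under alternatives, 173 stayed within the spread between samples, or within 1.5 times for counts, and no gene difference changed sign. This count says little for some alternatives, which could hardly move a value. The series table held the same intensities, and quantile normalizing again moved no level of the 10 genes by over 0.0068. Taking the highest transcript could alter only cpg-1 and mbk-2 among the 10. Transcript b of cpg-1 alone was not among the alternatives. The median deviation of the 10 genes in replicate 1, near 0 at 0.0071, was -0.025 with each array minus its median. All 10 genes remained above the serpentine receptor level and in the highest of 5 bins under every alternative for these counts, and 7 were in the highest of 10 bins. Their median level was 14.09 to 14.23, and leaving out a replicate moved no level by over 0.16. With the highest transcript of a gene, cpg-1 stood at 15.07 and exceeded cpg-2 by 0.86, because transcript b was then left out. Among genes above the median only, 84.0% passed the serpentine receptor level, in place of 42%. This share could take no other value, since that level lay above the median of all genes and every passing gene was kept. The count of listed pathway genes above that level was 49 to 52. Under alternatives chosen after seeing the data, the number of the 10 genes lowest in replicate 4 was 9 on quantile normalizing again, 8 with the highest transcript and 6 with each array minus its median. The count highest in replicate 3 was 6 in each of these. No paired analysis was possible because all samples belong to 1 group. The files hold no detection call, so a low value does not show that a transcript is missing.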
